A study of Homo sapiens with 5 samples.

Results

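The splicing factor and hnRNP genes described here were the 57 of 27189 listed genes whose symbols begin with HNRNP, SRSF and a digit, SNRP, SF3A or SF3B. They comprised 23 hnRNP, 12 SR, 13 snRNP and 9 SF3 genes, and the rule used the symbols and no measured value. The symbols are those of the annotation the authors used, in which SF3B14 is the older name of SF3B6. HT1080 cells, an established human fibrosarcoma line taken at passages 15 to 18, were embedded in type I collagen at 2 mg per ml for 24 h, and 1 RNA-seq library was made for each of 5 conditions. The low-density condition, LD, held 10 cells per cubic mm without added cytokine. The IL-6 and IL-8 conditions were the same density with that recombinant interleukin alone, and RM was the same density with both, at a ratio of 5 to 2. The high-density condition, HD, held 50 cells per cubic mm without added cytokine. The study asked which transcripts a rise in cell density changes and how far the interleukins alone or together bring the same changes. With 1 library per condition no difference could be set against a spread between replicates, so no test was made and each comparison with LD below uses that same LD library.

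Splicing removes introns from nascent transcripts. Small nuclear ribonucleoproteins (snRNPs), most of them built on a ring of Sm proteins, recognise the splice sites, and the SF3A and SF3B complexes belong to the U2 snRNP, which binds the branch point. SR proteins mostly favour the use of nearby exons, and hnRNPs coat the nascent RNA and often oppose them, so the balance of these families sets which exons enter the messenger RNA. Most of these genes are expressed in every dividing cell.

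The libraries held between 449661 (HD) and 1645539 (LD) reads outside RNA5-8S5, a ribosomal RNA entry that took 51.5% of all counted reads in HD and 76.9 to 79.6% in the others and was left out of the scaling. CPM below is the reads of a gene per 1000000 reads outside RNA5-8S5, and 3 reads, the floor of detection used here, correspond to 1.82 CPM in LD and 6.67 CPM in HD. The HD library stood apart. Over the 9300 genes with at least 50 reads summed over the 5 libraries, its log2(CPM + 1) correlated with that of the other libraries at r = 0.02 to 0.09 across genes, against r = 0.78 to 0.90 among the 4 low-density libraries. Over the members above that minimum the range was 0.45 to 0.51 for HD and 0.94 to 0.97 for the others. Summed over 7 mesenchymal markers, the level was 7229 to 10434 CPM in the low-density libraries, where VIM led and THY1 was at 0 except in LD, and 994 CPM in HD. Blood markers, of which 1 or 2 of 4 had a read in each low-density library, summed to 1.22 to 4.46 CPM there and to 140 CPM in HD, where all 4 had reads. Neural markers summed to at most 1.82 CPM and to 51.1 CPM in HD with 3 of 3 detected, epithelial markers to 8.37 to 80.2 CPM and to 111 CPM in HD. Of the liver markers ALB was at 0 in all 5 libraries, and APOA1 had 2 reads, both in HD. The labels' source name calls these cells epithelial. Of the epithelial markers EPCAM was at 0 in the low-density libraries. KRT19 had 132 reads in LD, 35 with IL-6, 24 with IL-8 and 6 in RM, and CDH1 0, 0, 4 and 6. GFAP was at 0 in 3 of these, RM excepted. Olfactory receptor genes took 0.337% of the reads in HD and 0.0017 to 0.0062% elsewhere, and ribosomal protein genes 1.83% in HD and 7.75 to 9.18% elsewhere. These values move with every HD result below, and their part in it was not tested.

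Together the 57 genes took about the same share of reads in the 4 low-density libraries and a much smaller one in HD. The share of reads outside RNA5-8S5 was 1.18% in LD (exact 95% interval 1.16 to 1.19%), 1.12% with IL-6, 1.17% with IL-8, 1.31% in RM and 0.274% in HD (0.259 to 0.290%). HD was 4.28-fold below LD (4.04 to 4.54), and RM was 1.11-fold above it (1.09 to 1.14). These intervals cover the counting of reads only, and reads amplified with phi29 polymerase without molecular identifiers are not independent molecules. In bulk RNA a smaller number of expressing cells and less RNA per cell cannot be told apart. The higher share in RM lay on very few genes. HNRNPC alone held 26.3% of the members' reads in RM, against 15.8% in LD. Without HNRNPC, SF3B2 and SNRPD2, a choice made after their values were seen, the share was 0.719% in LD, 0.709% with IL-6, 0.627% with IL-8, 0.600% in RM and 0.228% in HD, so that RM was then the lowest of the low-density libraries.

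The classes did not move alike. SR genes took 0.113% of the reads in LD, 0.106% with IL-6, 0.0780% with IL-8, 0.103% in RM and 0.0351% in HD, and the IL-8 value was 0.693 of that in LD (0.638 to 0.751). SF3 genes took 0.343% in LD and 0.376 to 0.390% with the interleukins. hnRNP genes took 0.548% in LD, 0.456% with IL-6, 0.518% with IL-8 and 0.639% in RM. For snRNP genes the share was 0.172% in LD, 0.172 to 0.193% with the interleukins and 0.0262% in HD, where it was 6.56-fold lower (5.46 to 7.96), against 3.20-fold (2.72 to 3.79) for SR genes, 4.05-fold (3.73 to 4.41) for hnRNP genes and 4.40-fold (3.95 to 4.92) for SF3 genes. These class values rest on their most-read genes. Without SF3B2 the SF3 share was 0.172% in LD, 0.188% with IL-6, 0.174% with IL-8 and 0.136% in RM, so that RM turned from above LD to below it. Without HNRNPC the hnRNP share turned likewise, from 0.363% in LD to 0.294% in RM. Without SNRPD2, which held 58.7% of the snRNP reads in LD, the snRNP share was 0.0711% in LD and 0.0679 to 0.0758% with the interleukins. In HD it was then 4.44-fold lower than in LD (3.50 to 5.72). The hnRNP share without HNRNPC was 3.08-fold lower in HD (2.82 to 3.37), and the SF3 share without SF3B2 2.93-fold (2.58 to 3.34). For SR genes without SRSF11 the fold was 3.68 (3.00 to 4.56), an interval that overlaps that of the snRNP genes. Without SRSF11 the SR share with IL-8 was 0.782 of that in LD (0.713 to 0.857).

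**Figure D1:**
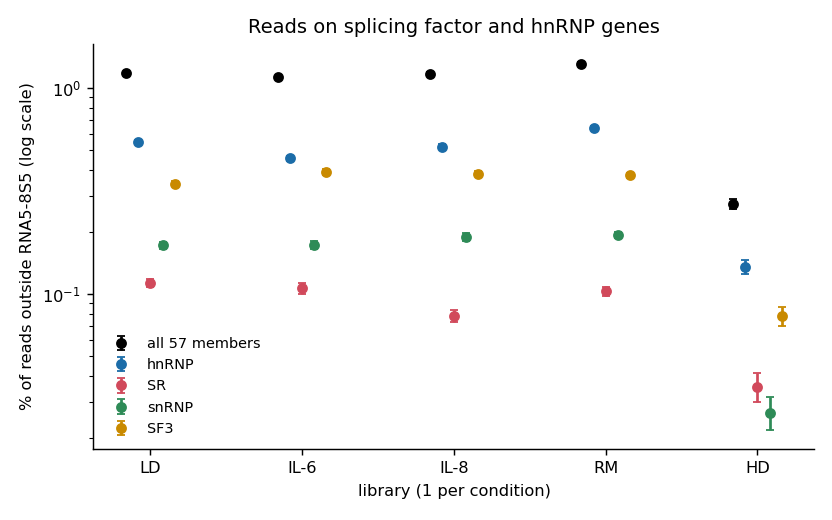
Share of reads outside RNA5-8S5 on all 57 members and on each class, in percent on a log scale, for the 5 libraries; bars are exact 95% counting intervals. The 4 low-density libraries lie between 1.12 and 1.31% for all members, and HD at 0.274% lies below all of them in every class.

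Of the 57 genes, 48 passed the minimum of 50 reads, and a gene is called higher or lower below where its ratio of (CPM + 1) to LD was at least 2-fold. With IL-6 none of the 48 was higher, where 12.2% of all 9300 genes were, and 2 were lower (8.55% of all genes). In the IL-8 library 2 were higher (12.5% of all genes) and 8 were lower (21.4%). RM had 1 higher member (10.9% of all genes) and 11 lower (29%). HD had 3 higher members (28.7% of all genes) and 38 lower (45.8%). Only the HD count of lower members, 79.2% of the 48, was well above the share over all genes, while the higher members were a smaller share than the background in every comparison. The minimum includes HD, and HNRNPA1L2 and SNRPD1 passed it only through their HD reads. With the minimum set on the 4 low-density libraries, 2 members were higher in HD (18.2% of all genes) and 38 lower (53.2%). Where the counting interval of the ratio also had to exclude 1, the higher and lower members were 0 and 2 for IL-6 (9.92% and 7.49% of all genes), 2 and 8 for IL-8 (10.9% and 19.1%), 1 and 11 for RM (10% and 26.9%) and 3 and 36 for HD (28% and 41.7%). With no condition on size, the interval for IL-6 lay above 1 for 8 members (20.7% of all genes) and below it for 10 (18.7%).

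The median log2 ratio of the 48 members was -0.07 with IL-6, -0.29 with IL-8, -0.41 in RM and -2.07 in HD, and that of all 9300 genes was 0.05, -0.24, -0.43 and -0.74. In the interleukin libraries the members' median therefore lay within 0.12 of the median of all genes. The downward shift of all genes with IL-8 and in RM depended on the scaling. With TMM factors the median of all genes was -0.04 with IL-8 and -0.03 in RM, and the members' medians were -0.077 and 0.011. RM then had 6 higher members, HNRNPUL2-BSCL2, HNRNPC, SNRPB, SF3B4, SF3B5 and SF3A2, and 4 lower, HNRNPA1L2, SF3B1, SF3A1 and SRSF7, beside 17.4% and 18.4% of all genes. With IL-8 the TMM calls were 3 higher, SRSF8, SF3A2 and SF3B5, and 3 lower, HNRNPA1L2, SF3B14 and SNRPD3, beside 15.9% and 16.5% of all genes, so that SF3B1, SF3B3, SNRPG, SRSF4 and SRSF11 were no longer called there. Log2 ratios below are on the scale without TMM factors, on which -0.43 is the median gene in RM and -0.24 that in IL-8. In HD the lower level of the members relative to all genes was smaller among well-counted genes. With at least 200 reads summed, the medians were -2.27 for 35 members and -1.72 for 4453 genes, and 32 of the 35 were lower against 65.2% of all. Per 1000000 of all reads, RNA5-8S5 included, 23 members were lower in HD and their median was -0.98, with 26.3% of all genes lower and a median of 0.25.

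**Figure D2:**
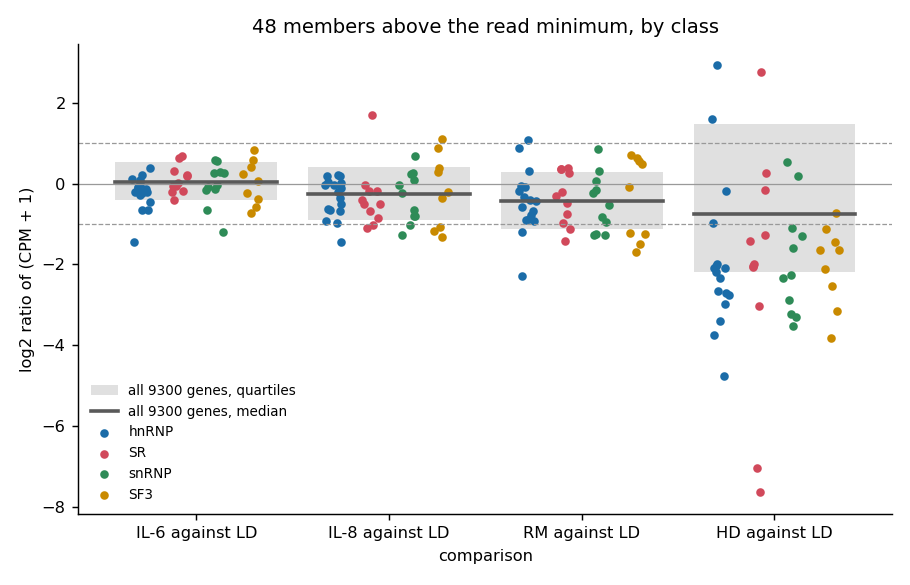
Log2 ratio of (CPM + 1) to LD for the 48 members above 50 summed reads, by class, in the 4 comparisons, which share the LD library; the grey band and line are the quartiles and median of all 9300 genes, and dashed lines mark 2-fold. The members lie around the median of all genes with IL-6, IL-8 and RM, and in HD 38 of 48 lie below the lower dashed line.

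The hnRNP genes above the minimum numbered 17, and in the interleukin libraries few passed 2-fold. Below LD in all 3 of these libraries were 9 of the 17 (27.9% of all genes), and above it 1 (14.5%), which became 5 and 2 with TMM factors (23.2% and 20.3%). HNRNPC, whose protein binds uridine tracts along nascent transcripts, was the most-read member. It had 3047 reads in LD, 1287 with IL-6, 2388 with IL-8, 4942 in RM and 78 in HD, or 1852, 1169, 2131, 3445 and 173 CPM. Its level in RM was 1.86 times that in LD (1.78 to 1.95), in IL-6 it was 0.631 of LD (0.591 to 0.674), and in HD 10.7-fold lower (8.53 to 13.5). HNRNPC thus lay below LD with IL-6 alone, at 1.15 of LD with IL-8 alone (1.09 to 1.21) and further above it with both interleukins. In RM it passed 2-fold with TMM factors (log2 ratio 1.32). Where unlabelled values follow below, 5 reads are in this order, 4 reads are those of the low-density libraries, and 4 log2 ratios are those of IL-6, IL-8, RM and HD.

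HNRNPU, a nuclear scaffold hnRNP, lay below LD in RM, with 826, 402, 354, 423 and 28 reads and log2 ratios to LD of -0.46, -0.67, -0.77 and -2.99. The number of HNRNPC reads per HNRNPU read, which no scaling changes, was 3.69 in LD (3.41 to 3.99), 3.20 with IL-6 (2.86 to 3.59), 6.75 with IL-8 (6.03 to 7.56), 11.7 in RM (10.6 to 12.9) and, at high density, 2.79 (1.79 to 4.46). This and the other within-library ratios below follow how 2 genes moved against each other and were chosen after the values were seen. HNRNPUL1, a relative of HNRNPU, had 859, 758, 668, 938 and 55 reads, and HNRNPAB, of the A/B family, 771, 447, 459, 635 and 51. Neither passed 2-fold with an interleukin, and in HD their log2 ratios were -2.08 and -2.04.

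HNRNPA0, an A/B hnRNP encoded without introns, was nearly level in the low-density libraries, with 243, 190, 162 and 204 reads, and had 2 in HD, where the LD level would have given 66.4. Its HD level was 33.2-fold lower (9.09 to 276). HNRNPA1L2 and HNRNPUL2-BSCL2 were the hnRNP genes higher in HD, and HNRNPA1L2, with 36 reads over the low-density libraries and 51 in HD, was above the minimum only through HD, so its call there is a description of those reads. HNRNPUL2-BSCL2 is a readthrough entry that joins HNRNPUL2 to the neighbouring seipin gene BSCL2, and HNRNPUL2 has no entry of its own among the 57 genes. Of the 50-base windows of the readthrough entry, 98.8% also occur in other genes, so its reads cannot be kept apart from theirs. It had 167 reads in LD, 102 with IL-6, 115 with IL-8, 310 in RM and 140 in HD, which put RM 2.13-fold (1.76 to 2.59) and HD 3.07-fold (2.43 to 3.86) above LD.

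HNRNPA1L2 is a processed copy of HNRNPA1 and codes for a nearly identical protein. Of the 50-base windows of its transcript, 58.5% occur in another gene. The authors' quantification could split reads between such copies, so both values are uncertain. HNRNPA1 had 470 reads in LD, 260 with IL-6, 252 with IL-8, 220 in RM and 65 in HD, and HNRNPA1L2 had 23, 5, 5, 3 and 51. HNRNPA1L2 reads per HNRNPA1 read were 0.0489 in LD (0.0307 to 0.0743), 0.0136 to 0.0198 with the interleukins and 0.785 in HD (0.533 to 1.15). The copy was 8.11-fold above LD in HD (4.87 to 13.9) while HNRNPA1 had a log2 ratio of -0.98.

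The remaining hnRNP genes were mostly below LD with the interleukins without passing 2-fold. HNRNPK, HNRNPA2B1, HNRNPD and HNRNPM, all regulators of exon choice, had log2 ratios between -0.65 and 0.11 with IL-6, -0.92 and -0.11 with IL-8 and -0.93 and -0.34 in RM, and between -2.75 and -2.18 in HD. HNRNPH3, a G-tract binding hnRNP, passed 2-fold in RM, with 107 reads in LD and 40 in RM. HNRNPH1, of the same group, had 50, 33, 40, 38 and 12 reads and a log2 ratio of -0.18 in HD, the hnRNP nearest to its LD level there. HNRNPA3 had 676, 403, 471, 444 and 36 reads, and its effective length, the reads per TPM relative to the library's median gene, was 0.807 of LD with IL-6, 0.725 with IL-8 and 0.677 in RM. Such a value is below 1 where the authors' RSEM quantification places more of a gene's reads on shorter isoforms. Of the members with 50 reads in each library, 32 in RM, 2 were beyond 1.25-fold, HNRNPA3 and SF3B2, against 8.44% of all measured genes.

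SR genes had the lowest of their low-density shares in IL-8. Of the 11 above the minimum, 10 were below LD there (60.4% of all genes), with a median log2 ratio of -0.49 (-0.24 for all genes), and 5 had their lowest low-density value in IL-8 (30.1% of all genes). With TMM factors 7 were below LD (51.7% of all genes) and the median was -0.28 (-0.04 for all genes). SRSF11, an arginine-rich splicing factor, had 521 reads in LD, 333 with IL-6, 165 with IL-8, 550 in RM and 59 in HD. It was 2.15-fold lower with IL-8 (1.80 to 2.58) and at 1.21 of LD in RM (1.07 to 1.37). SRSF4 followed with 329, 211, 109, 232 and 0 reads, 2.06-fold lower with IL-8 (1.65 to 2.58). With TMM factors their log2 ratios with IL-8 were -0.89 and -0.82, no longer past 2-fold. With both interleukins, in RM, neither gene was past 2-fold below LD.

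SRSF4 and SRSF9 were not detected in HD. At the LD level SRSF4 would have given 89.9 reads and SRSF9 58.8, and with the floor of 3 reads SRSF4 was at least 30.0-fold and SRSF9 at least 19.6-fold lower. SRSF9 had 215, 126, 130 and 241 reads in the low-density libraries, none past 2-fold from LD, and 38.9% of its windows are shared with transcripts of GATC. SRSF3, the shortest SR protein and an adaptor for RNA export, had 403, 234, 268, 207 and 13 reads and log2 ratios of -0.20, -0.03, -0.76 and -3.04. SRSF5 and SRSF7 were the SR genes lower in RM. SRSF7 had 52, 40, 19, 16 and 5 reads and was 2.83-fold lower in RM (1.59 to 5.32), and SRSF5 had 27, 30, 16, 10 and 9, too few for a narrow interval. SRSF10, a splicing repressor when dephosphorylated, had 53, 41, 22, 23 and 13 reads and a log2 ratio of -0.15 in HD. SRSF1, SRSF2 and SRSF6, classical members of the family, had log2 ratios between -0.51 and 0.37 with the interleukins and between -2.06 and -1.98 in HD, and 59.0% of the windows of SRSF1 are shared with another entry.

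SRSF8 was the SR gene called higher in HD. It arose as a copy of SRSF2, and the first 150 coding bases of each are shown with the differing bases in capitals. That of SRSF2 lies on chr17:76737011-76737160 (minus strand, GRCh38) and that of SRSF8 on chr11:95067227-95067376 (plus strand).
SRSF2: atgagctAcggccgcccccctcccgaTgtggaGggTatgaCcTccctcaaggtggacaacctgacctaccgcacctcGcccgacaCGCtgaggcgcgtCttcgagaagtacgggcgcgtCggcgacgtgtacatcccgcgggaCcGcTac
SRSF8: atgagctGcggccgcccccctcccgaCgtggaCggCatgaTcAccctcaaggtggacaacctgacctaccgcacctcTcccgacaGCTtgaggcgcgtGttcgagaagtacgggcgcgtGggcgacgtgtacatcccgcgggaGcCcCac
They differ at 15 of these positions. Of the SRSF8 windows 4.15% occur in another gene, and of the SRSF2 windows 29.5%, in MFSD11. SRSF8 had 11 reads in LD, 12 with IL-6, 27 with IL-8, 13 in RM and 23 in HD, and SRSF2 had 143, 72, 68, 108 and 9. SRSF8 was thus 3.60-fold above LD with IL-8 (1.73 to 8.05) and 7.65-fold in HD (3.58 to 17.4), on few reads, and SRSF2 had a log2 ratio of -2.06 in HD. Genes without introns were more often read in HD. Intronless protein-coding genes, matched by symbol to GENCODE 29, took 1.05% of the reads in HD and 0.593 to 0.641% elsewhere, and processed pseudogenes 0.460% against 0.147 to 0.231%. Olfactory receptor genes, at 0.337% in HD, were not taken out of the intronless set where they have no introns. Whether these higher shares bear on HNRNPA1L2 and SRSF8 was not tested, and HNRNPA0 and SF3B5, whose coding sequences also lie in 1 exon, were lower in HD.

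The Sm ring has 7 subunits that assemble in equal number, and the measured levels of their transcripts were far from equal. Whether the amplification with phi29 polymerase has a part in this spread between genes was not tested. By TPM, which is per length, SNRPD2 was the highest in every library, at 2456 in LD, 2334 with IL-6, 2707 with IL-8, 2768 in RM and 331 in HD. SNRPD1 was the lowest in LD, at 11.0 TPM on 17 reads, 224-fold below SNRPD2. SNRPF, with 8, 2, 1, 4 and 2 reads, and SNRPE, with 32, 19, 12, 19 and 10, were also low, and their order among themselves rests on too few reads to be told apart.

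SNRPB, the ring's SmB subunit, and SNRPG separated with IL-8 and in RM. SNRPB had 322 reads in LD, 257 with IL-6, 354 with IL-8, 509 in RM and 9 in HD, and SNRPG had 154, 100, 51, 56 and 8. SNRPB in RM was 1.81 times LD (1.57 to 2.09), and SNRPG passed 2-fold downward with IL-8 and in RM with log2 ratios of -1.02 and -1.24. Reads of SNRPB per read of SNRPG were 2.09 in LD (1.72 to 2.55), 2.57 with IL-6 (2.03 to 3.27), 6.94 with IL-8 (5.16 to 9.50), 9.09 in RM (6.89 to 12.2) and, at high density, 1.13 (0.385 to 3.35). SNRPD3 was lower with each interleukin, with 91 reads in LD, 26 with IL-6, 25 with IL-8, 44 in RM and 3 in HD. It was 2.34-fold lower with IL-6 (1.50 to 3.77) and 2.48-fold with IL-8 (1.58 to 4.03), and its log2 ratio in RM was -0.83. It was the only member besides HNRNPA1L2 past 2-fold with IL-6. Of the SNRPD3 windows 18.0% are shared with other entries, mostly GUCD1.

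Proteins particular to U1 or U2 snRNPs differed as well. SNRPA and SNRPC belong to the U1 snRNP, which binds the 5′ splice site. SNRPA had 201, 204, 147, 150 and 11 reads and log2 ratios of 0.60, 0.10, -0.22 and -2.27. SNRPC had 187, 79, 73, 67 and 4 reads and log2 ratios of -0.66, -0.79, -1.26 and -3.53, so that of these partners SNRPC was below LD in every library. SNRPA1 and SNRPB2 form a pair on the U2 snRNA. Of the SNRPA1 windows 41.5% are shared with other entries. SNRPA1, with 33, 20, 22, 11 and 4 reads, passed 2-fold in RM, and SNRPB2, with 56, 56, 46, 44 and 6, had a log2 ratio of -0.15 there. SNRPN, an SmB relative whose windows are 44.2% shared, mostly with SNURF, had 69, 57, 40, 63 and 6 reads.

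All 9 SF3 genes passed the minimum, and they split within their complexes. In RM 4 were lower, SF3B1, SF3A1, SF3B3 and SF3B14 (29% of all genes). Another 4 were above LD, SF3B4, SF3B5, SF3A2 and SF3B2, with log2 ratios between 0.49 and 0.71. Of all 9300 genes 3132 were above LD there. With TMM factors SF3B1 and SF3A1 stayed lower (18.4% of all genes). SF3B4, SF3B5 and SF3A2 were then higher (17.4%). SF3B1, the subunit that clamps the branch point helix, had 333 reads in LD, 134 with IL-6, 100 with IL-8, 89 in RM and 6 in HD, lower than LD in each. The folds were 1.66 with IL-6 (1.36 to 2.05), 2.27 with IL-8 (1.81 to 2.86), 3.26 in RM (2.57 to 4.17) and, at high density, 15.2 (6.89 to 41.6). SF3B2, its partner in the complex, had 2806, 2222, 2344, 3443 and 86 reads and in RM was at 1.41 times LD (1.34 to 1.48). Reads of SF3B2 per read of SF3B1 were 8.43 in LD (7.52 to 9.47), 16.6 with IL-6 (13.9 to 19.9), 23.4 with IL-8 (19.2 to 28.9), 38.7 in RM (31.3 to 48.3) and, at high density, 14.3 (6.32 to 40.1). The intervals of LD, IL-6 and RM do not overlap, and that of HD overlaps all of the others.

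By TPM the range within the SF3B complex widened in the same way. SF3B2 was the highest subunit in every library, at 1083 TPM in LD, 1434 with IL-6, 1200 with IL-8, 2247 in RM and 184 in HD. SF3B1 was at 76.8, 46.5, 31.9, 21.2 and 7.14 TPM. The highest over the lowest subunit was 15.1-fold in LD and 106-fold in RM. Part of the RM value is the length term, since the effective length of SF3B2 in RM was 0.617 of that in LD. SF3B3, a scaffold subunit, had 765, 393, 248, 281 and 96 reads, and was lower with IL-8 and in RM with log2 ratios of -1.07 and -1.24. SF3B14, which touches the branch point adenosine, had 50, 22, 13, 18 and 2 reads and was lower with IL-8, in RM and in HD. SF3B5, the smallest subunit, had 336, 190, 424, 458 and 21 reads, and SF3B4 had 142, 128, 127, 203 and 14.

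In the SF3A complex, which has 3 subunits, SF3A2 and SF3A1 parted with IL-8 and in RM. SF3A2 had 391 reads in LD, 468 with IL-6, 572 with IL-8, 508 in RM and 34 in HD, and it was 2.15-fold above LD with IL-8 (1.89 to 2.45), 1.79-fold with IL-6 (1.56 to 2.05) and 1.49-fold in RM (1.30 to 1.70). SF3A1 had 544, 546, 320, 168 and 47 reads, at 1.50 of LD with IL-6 (1.33 to 1.69) and 2.82-fold lower in RM (2.37 to 3.38). Reads of SF3A2 per read of SF3A1 were 0.719 in LD (0.630 to 0.820), 0.857 with IL-6 (0.756 to 0.972), 1.79 with IL-8 (1.56 to 2.06), 3.02 in RM (2.53 to 3.62) and, at high density, 0.723 (0.451 to 1.15). For SF3A1, RM with both interleukins lay below IL-6 alone and IL-8 alone. Of the SF3A2 windows 18.4% are shared with other entries, mostly PLEKHJ1. SF3A3 stayed within 2-fold of LD in all libraries, with 269, 190, 144, 223 and 44 reads and a log2 ratio of -0.73 in HD, where every other SF3 gene passed 2-fold.

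**Figure D3:**
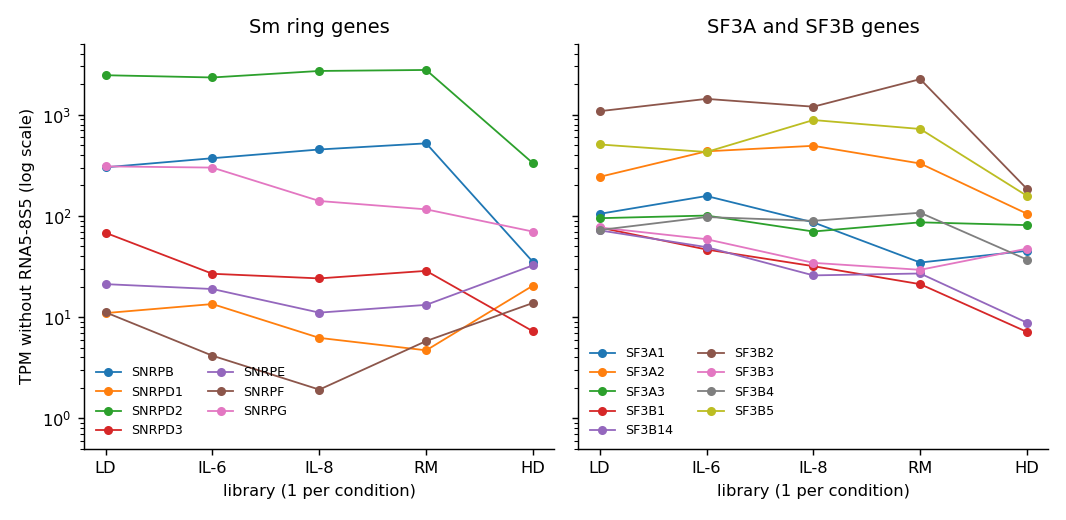
TPM without RNA5-8S5 on a log scale for the 7 Sm ring genes and the 9 SF3A and SF3B genes in the 5 libraries, 1 library per condition and so no error bars; points under about 20 TPM rest on few reads. SNRPD2 and SF3B2 lead in every library, and SF3B1 goes from 76.8 TPM in LD to 21.2 in RM while SF3B2 goes from 1083 to 2247.

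SF3 genes that parted in RM also differed in base composition, with an exception. In their longest transcripts the SF3 genes above LD there had 55.1 to 66.6% GC. Of those called lower, SF3B1 had 41.0%, SF3B3 48.5% and SF3A1 50.9%, and SF3B14 had no value. SF3A3, at 48.5% like SF3B3, had a log2 ratio of -0.07 in RM, where SF3B3 had one of -1.24. A stretch of 150 coding bases, bases 301 to 450, is shown for SF3B1, SF3B2 and SF3A2, with G and C in capitals, to set an SF3 gene called lower in RM beside a pair that lay above LD there, a choice made after their values were seen. The stretches lie on chr2:197418554-197420542 (minus strand), chr11:66055118-66055267 (plus strand) and chr19:2245501-2246926 (plus strand) of GRCh38, the first and last across introns.
SF3B1: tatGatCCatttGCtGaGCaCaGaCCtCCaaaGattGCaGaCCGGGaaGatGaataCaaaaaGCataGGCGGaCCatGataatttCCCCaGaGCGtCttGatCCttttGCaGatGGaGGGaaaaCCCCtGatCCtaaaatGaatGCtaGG
SF3B2: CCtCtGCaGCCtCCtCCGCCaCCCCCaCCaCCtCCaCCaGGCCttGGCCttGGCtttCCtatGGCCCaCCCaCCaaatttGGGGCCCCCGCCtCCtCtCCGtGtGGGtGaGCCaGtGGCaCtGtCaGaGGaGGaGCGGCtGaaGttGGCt
SF3A2: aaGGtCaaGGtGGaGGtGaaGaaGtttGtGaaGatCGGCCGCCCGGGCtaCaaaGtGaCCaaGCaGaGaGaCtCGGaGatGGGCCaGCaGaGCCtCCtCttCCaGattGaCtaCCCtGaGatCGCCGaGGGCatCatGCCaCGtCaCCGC
G and C make up 45.3%, 66% and 58% of these stretches and 43.1%, 56.1% and 67.7% of the whole coding sequences. GC content of the longest transcript was available for 47 of the 48 members, SF3B14 excepted, and ran from 35.3 to 66.6%. Of the 22 members under 45% GC, 4 were lower and none higher in RM (34.4% and 4.99% of all genes in that range), with a median log2 ratio of -0.71. Of the 17 from 45 to 55%, 6 were lower and none higher (29.2% and 11% of all genes there), with a median of -0.34. Of the 8 above 55%, none was lower and HNRNPUL2-BSCL2 was higher (25% and 15% of all genes there), with a median of 0.61. By calls, the members under 45% were thus lower at a smaller share than all genes of that range. Over all genes with a GC value the medians in the same order were -0.68, -0.44 and -0.18, so the order of the medians was shared, and the members above 55% lay above the median gene of that range. HNRNPC, at 39.2% GC, went against that order, with the log2 ratio of 0.90 in RM second only to that of HNRNPUL2-BSCL2. SRSF6, SRSF8 and SRSF11, also under 45% GC, had log2 ratios of 0.37, 0.39 and 0.28 in RM. SNRPA, at 58.3% GC, had one of -0.22.

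Across the 47 members the log2 ratio in RM correlated with GC at Pearson r = 0.43 (Spearman rho 0.39), and across 8289 genes at r = 0.14 (rho 0.16). In IL-8 the values were 0.41 (rho 0.40) for members and 0.15 (rho 0.19) for all genes, in IL-6 0.23 (rho 0.18) and 0.03 (rho 0.04), and in HD -0.08 (rho -0.06) and -0.17 (rho -0.17). Genes within 1 pair of libraries are not independent, and these pairs share LD. Whether GC content has a part in the split of the SF3 and Sm genes was not tested.

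**Figure D4:**
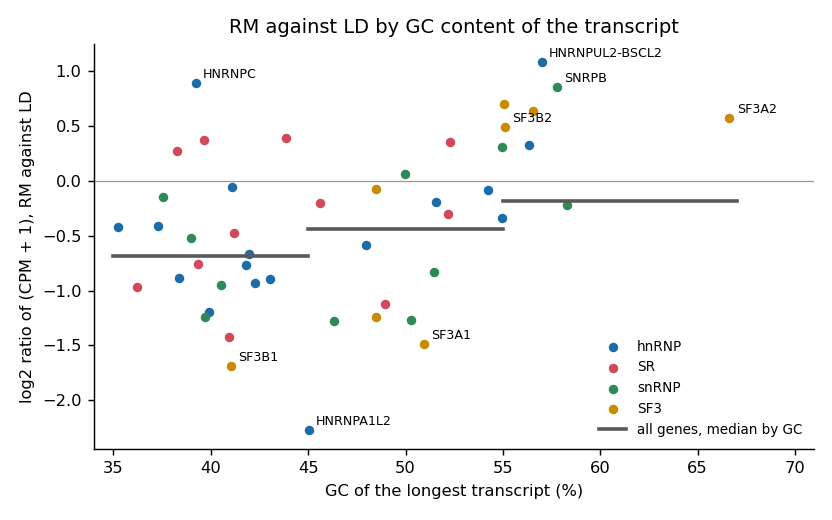
Log2 ratio of (CPM + 1), RM against LD, by GC content of the longest GENCODE 29 transcript, for 47 members coloured by class; grey lines are the medians of all genes under 45%, from 45 to 55% and above 55%. Members above 55% GC have a median of 0.61, and those under 45% one of -0.71. Of the latter HNRNPC lies highest, and SRSF6, SRSF8 and SRSF11 also lie above 0. SNRPA, above 55%, lies below 0.

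Comparing the 4 low-density libraries gene by gene, LD was the highest for 20 of the 48 members (28.2% of all genes), IL-6 for 14 (32.4%), RM for 9 (18.5%) and IL-8 for 5 (20.9%). RM was the lowest for 22 members (43.8% of all genes), IL-8 for 14 (30.1%), and LD and IL-6 for 6 each (15.4% and 10.8%). With TMM factors LD was the highest for 13 members (23.4% of all genes), IL-6 for 8 (21.3%), IL-8 for 9 (25.5%) and RM for 18 (29.8%), so the library most often the highest depended on the scaling. Below LD in all of IL-6, IL-8 and RM were 20 members (27.9% of all genes), among them HNRNPU, SF3B1, SF3B3, SNRPC and SNRPD3, and above it 6 (14.5%), among them SF3A2, SF3B2, SF3B4 and SNRPB. With TMM factors these were 13 and 9 members (23.2% and 20.3% of all genes), and RM was the lowest for 13 (30.6%). These comparisons share LD, so the libraries are not independent of each other in such a count.

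In HD the lower level ran through all classes. It covered 13 of 17 hnRNP, 8 of 11 SR, 9 of 11 snRNP and 8 of 9 SF3 genes, beside 45.8% of all genes, and 36 of the 38 also had a counting interval below 1 (41.7% of all genes). The median log2 ratio was -2.18 for hnRNP, -1.98 for SR, -2.27 for snRNP and -1.65 for SF3 genes. The most-read members were each far below LD there. SNRPD2 had 1663 reads in LD and 46 in HD, with a log2 ratio of -3.29, and SF3B2 had 2806 and 86, 8.92-fold lower (7.19 to 11.2). Besides the 3 higher members, SNRPE, SNRPD1 and SRSF5 were above LD without passing 2-fold, each on 10 reads or fewer in HD. SNRPD1, with 45 reads over the low-density libraries and 7 in HD, was above the minimum only through HD.

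**Figure D5:**
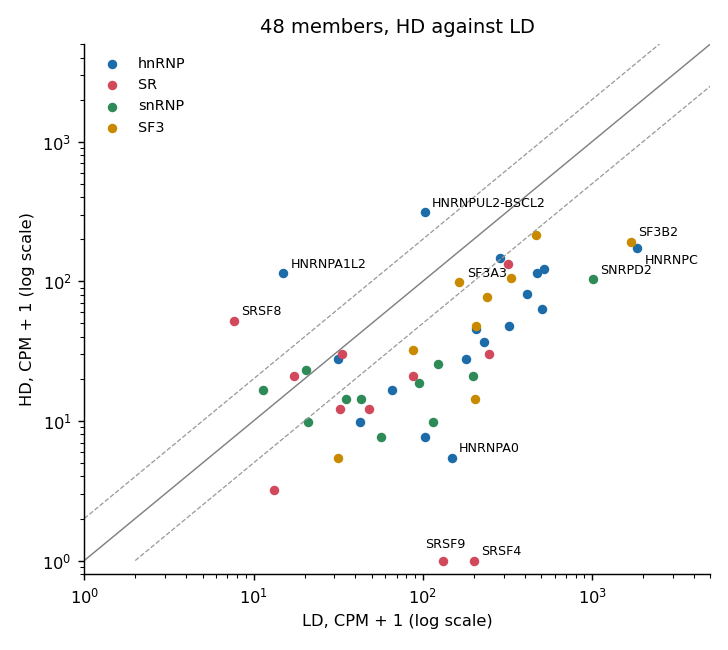
CPM + 1 in HD against LD on log scales for the 48 members above 50 summed reads, coloured by class; the solid line marks equality and the dashed lines 2-fold. Most members lie below the lower dashed line, SRSF4 and SRSF9 at 0 reads in HD, and HNRNPA1L2, SRSF8 and HNRNPUL2-BSCL2 lie above the upper one.

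The 9 members under the minimum had little to measure. SRSF12, an SR gene with restricted expression, had 2, 2, 3, 2 and 21 reads, so that nearly all of them were in HD. HNRNPH2, nearly identical to HNRNPH1 in protein, had 15 reads with IL-6 and none elsewhere. HNRNPL, a regulator of many exons, had 2 reads in LD and none elsewhere, and 32.3% of its windows are shared with overlapping entries, so it is listed here near 0 without being known to be absent. HNRNPU-AS1, antisense to HNRNPU, had 7, 8, 5, 9 and 4 reads, and the protocol as described does not mark strand, so these cannot be told from HNRNPU reads. The pseudogenes SNRPD2P2 and HNRNPA3P1 had 2 reads each and HNRNPKP3 had 1, all in HD, and HNRNPA1P33 had 1 with IL-8 and 1 in RM.

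Other splicing genes outside these families were mostly lower in HD too, and genes of the exon junction complex were higher in RM. Of 33 measured spliceosome core genes, 9 were lower and 2 higher in RM (29% and 10.9% of all genes), 8 and 5 with IL-8 (21.4% and 12.5%), 1 and 1 with IL-6 (8.55% and 12.2%), and 24 and 1 in HD (45.8% and 28.7% of all genes), where the median log2 ratio was -1.80. Of 25 splicing regulators outside the member families, 4 were lower and 2 higher in RM, 4 and 0 with IL-8, 0 and 0 with IL-6, and 23 and 0 in HD. The exon junction complex marks spliced junctions on messenger RNA. Of its 4 measured genes, 3 were higher in RM (10.9% of all genes). RBM8A had 95 reads in LD, 79 with IL-6, 92 with IL-8, 934 in RM and 34 in HD. EIF4A3, the helicase of that complex, had 61, 15, 78, 319 and 0, and CASC3 had 171, 127, 138, 329 and 17. The log2 ratios in RM were 3.47, 2.55 and 1.13, larger than that of any of the 48 members in RM. In IL-6 2 of the 4 were lower, EIF4A3 and MAGOHB (8.55% of all genes), and in HD 3 (45.8%).

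The kinases that phosphorylate SR proteins and the factors that import SR proteins and snRNPs into the nucleus were measured on fewer genes. Of the 4 kinases measured, SRPK1, CLK2 and PRPF4B were lower in RM, PRPF4B with IL-8 and all 4 in HD, where 29%, 21.4% and 45.8% of all genes were lower. SRPK1 had 51, 19, 34, 18 and 1 reads. Among 6 import and assembly genes, GEMIN4, a part of the SMN complex that loads Sm rings, was higher with IL-8 and in RM (12.5% and 10.9% of all genes), with 23, 13, 61, 223 and 13 reads, TNPO3 was lower in RM, and TNPO1, KPNB1 and GEMIN5 were lower in HD. KPNB1, an importin, had 2239, 1306, 992, 1168 and 32 reads.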

How the data were processed

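Members were found by gene symbol. Per the labels, mRNA was primed with oligo-dT, the cDNA pool was amplified with phi29 polymerase, and libraries were made with Nextera XT. The authors deposited whole-number read counts per gene without normalization, and TPM values, which correct for transcript length and library total. The submitters' processing notes name Bowtie2 2.3.1, RSEM 1.2.25, CASAVA 1.4 and build GRCh37 (hg19), while the annotation is not given in the sources used here. Counts were divided by the reads outside RNA5-8S5, TPM values were rescaled to 1000000 without it, and log2((CPM + 1)/(LD CPM + 1)) was computed for the 9300 genes with at least 50 reads summed over the 5 libraries. Counts and medians over these genes stand as background. The pseudocount of 1 CPM understates the change of genes with few reads. Ratios have exact conditional binomial intervals and shares exact Clopper-Pearson intervals, at 95%, for counting error only.

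Members and lists were chosen with earlier results of these data known. Genes named with values were the 4 most-read of each class, the 3 highest and 3 lowest log2 ratios of each comparison among members with at least 50 reads in the pair of libraries, all Sm ring, SF3A and SF3B genes, antisense, pseudogene or near-identical copies and, of the other splicing lists, the 3 most-read genes; other genes named were chosen after their values were seen. GENCODE 29 (GRCh38), matched by symbol for 20762 of 27189 genes (76.4%) and 55 of 57 members, gave gene type, transcript length, GC content, shared 50-base windows and coding sequences. The coordinates printed are those of GRCh38, not of the authors' build. The calculations were tested on simulated data. The alternatives tried were counts per 1000000 of all reads, TMM factors (edgeR, used for nothing else), median-ratio size factors, TPM, a pseudocount of 0.1, other read minimums and a required counting interval. The software was edgeR 4.0.16 under R 4.3.3, and Python 3.11.15 with scipy 1.17.1, pandas 2.3.3, numpy 2.4.6 and matplotlib 3.10.9.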

Additional observations from a re-analysis of the deposited data

How the results depend on the processing

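No paired analysis was possible because each condition has 1 library, and no replicate could be left out. Over the other settings 84 counts and medians stayed the same, and 37 summary values moved. A count stayed the same within 1.5 times. For a median the bound was the median half-width of the members' counting intervals, which is not an error of the median. With the interleukins it was 0.30 to 0.33 log2. Every share moved, an outcome fixed in advance by the settings tried. Of the log2 ratios of named genes 385 stayed within their interval's half-width and 135 moved. No median or named-gene ratio changed sign after passing 2-fold. The HD counts of lower members ran from 23 per 1000000 of all reads, RNA5-8S5 included (26.3% of all genes), to 40 with TMM factors (54.1%). Per 1000000 of all reads 6 members were higher in HD (39% of all genes), and the members' median was -0.98. The higher members in HD were 7 without a read minimum (57.1% of all genes) and 1 with at least 200 reads (12.6%). In RM the members higher and lower were 0 and 13 per 1000000 of all reads (7.69% and 26.6% of all genes). They were 6 and 4 with TMM factors (17.4% and 18.4%, members' median 0.011). With median-ratio size factors they were 7 and 2 (21.3% and 15.2%, members' median 0.18). By TPM 17 were lower (31.3% of all genes), and with at least 200 reads 6 (21.0%). In IL-8 1 member was higher per 1000000 of all reads (7.63% of all genes), and 3 were lower with TMM factors (16.5%). With median-ratio size factors 4 were higher and 1 lower (18.4% and 13.7%, members' median 0.054), and with at least 200 reads 1 and 5 (10.6% and 14.3%). In IL-6 the members higher and lower were 1 and 4 without a minimum (12.9% and 9.35% of all genes), and 0 were lower with at least 200 reads (5.25%). With 50 reads summed over the 4 low-density libraries, a minimum added after the data were seen, 1 was lower (8.42%). RM was the lowest of the low-density libraries for 13 members with TMM factors (30.6% of all genes) and 9 with median-ratio size factors (26.8%). Of all reads, RNA5-8S5 included, the members' share was 0.272% in LD, 0.243% with IL-6, 0.238% with IL-8, 0.275% in RM and 0.133% in HD; without HNRNPC, SF3B2 and SNRPD2 it was 0.719, 0.709, 0.627, 0.600 and 0.228% of reads outside RNA5-8S5. Apart from the scalings themselves, which change every ratio of a comparison together, the causes were not tested. The HD library, with 449661 reads and a floor of 6.67 CPM, limits what can be said of genes with few reads.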
